A study of Mus musculus with 16 samples.

Results

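The carboxylesterases described here are the 10 genes Ces1b, Ces1c, Ces1d, Ces1e, Ces1f, Ces1g, Ces2a, Ces2c, Ces2e and Ces3a, which were found in the deposited count tables by matching their Ensembl identifiers to these symbols. All 10 were present among the 24623 identifiers of the male table and the 24840 of the female table, and 9 and 8 further rows of the 2 tables carried other carboxylesterase symbols. The 16 livers came from mice with floxed alleles of Matr3, the gene of the nuclear RNA-binding protein matrin-3. Of these, 4 floxed males and 4 floxed females carried no Cre. The 4 LKO (liver-specific knockout) males and 4 LKO females also carried Cre recombinase under the albumin promoter, which is active in hepatocytes. Liver cells in which this promoter has not been active should keep the gene. All 16 animals ate high-fat chow (60% of kcal as fat) from the age of 7 weeks for 16 weeks, and were fasted for 12 hours before the liver was taken. Floxed and LKO mice were littermates per the labels, but the mouse numbers of floxed males 1 and 2 lay well apart from those of all the others. Each sex was deposited as its own table, so sex and table cannot be told apart. Only LKO mice carried Cre, so what is called the effect of the deletion below cannot be told apart from an effect of Cre.

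Carboxylesterases are serine hydrolases that sit mostly in the lumen of the endoplasmic reticulum, where they cleave ester, amide and thioester bonds. In liver they are known for the hydrolysis of drugs and other foreign esters and for the handling of lipid esters: some members release fatty acids from stored triacylglycerol, which hepatocytes can re-esterify and load onto very low density lipoprotein (VLDL). Mice carry an expanded family that lies in gene clusters, and many members are transcribed under the nuclear receptors CAR and PXR, which sense foreign compounds.

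The libraries held between 30495505 and 36496193 counts, and the counts of the 10 genes lay between 102 (Ces2c) and 117627 (Ces1c) per library. Levels are given as CPM, counts relative to library size, scaled by the trimmed mean of M values (TMM). The deleted gene, Matr3, stood at 57.7 ± 3.81 CPM in the floxed males and at 35.6 ± 1.65 CPM in the LKO males. The female values were 58.0 ± 5.03 CPM without Cre and 38.0 ± 1.40 CPM with it (SD, n = 4 each). Both sexes gave an exact permutation p of 0.0286, the smallest that 70 regroupings allow. Xist and Ddx3y matched the labelled sex in all 16 libraries. The hepatocyte markers Alb and Ttr were abundant in every library, Alb at 17305 CPM or more, and Umod of kidney tubule, Lct of enterocytes and Adipoq of adipocytes reached at most 1.89 CPM. Other genes of the adipocyte and enterocyte lists were not low: Apoa4 and Fabp2 reached 8997 and 277 CPM, and Cfd and Cidea reached 66.6 and 70.0 CPM in LKO males. Cfd and Cidea had log2 fold changes of 1.40 and 1.85 in males (edgeR adjusted p = 0.0985 and 0.116). On the first principal component of the female libraries, floxed 4 lay at 10.9 against 33.8 to 40.2 for the other floxed females, and LKO 7 at -6.91 against -42.3 to -32.2 for the other LKO females. Results that rest on these 2 libraries are given below with and without them.

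The 10 genes lie in 2 blocks of mouse chromosome 8 (mm10). On the minus strand lay Ces1b (ENSMUSG00000078964) from 93056728 to 93080017, Ces1c (ENSMUSG00000057400) from 93099015 to 93131283 and Ces1d (ENSMUSG00000056973) from 93166068 to 93197838, followed by Ces1e (ENSMUSG00000061959) from 93201218 to 93229619, Ces1f (ENSMUSG00000031725) from 93256236 to 93279747 and Ces1g (ENSMUSG00000057074) from 93302369 to 93337308. On the plus strand lay Ces2a (ENSMUSG00000055730) from 104734003 to 104741634 and Ces2c (ENSMUSG00000061825) from 104847068 to 104854483, followed by Ces2e (ENSMUSG00000031886) from 104926260 to 104934672 and Ces3a (ENSMUSG00000069922) from 105048601 to 105058413. Transcripts of Ces1d, Ces1e, Ces1f, Ces1g and Ces2e shared no run of 100 bases with another gene of the GENCODE annotation. Shared runs made up 13.6% of the 100-base windows of Ces2c, 8.13% of Ces2a, 6.88% of Ces3a (all with Ces3b), 1.29% of Ces1b and 1.03% of Ces1c (each with the other). How reads from such stretches were counted is not given in the sources used here, and the values of those 5 genes are uncertain to that extent.

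The order of the levels was read per length, as CPM per kilobase of exon. In floxed males Ces1c, a secreted esterase of plasma, stood highest at 1007 ± 141 CPM per kb, followed by Ces3a (587 ± 65.0), Ces1d (395 ± 136), Ces1f (173 ± 23.8), Ces1g (144 ± 20.96), Ces2e (114 ± 11.0), Ces1e (70.8 ± 9.56), Ces2a (60.7 ± 12.8), Ces1b (52.9 ± 10.7) and Ces2c (27.7 ± 7.59; SD, n = 4). The ranges of neighbours in this order overlapped in 5 of 9 pairs, namely Ces3a and Ces1d, Ces1f and Ces1g, Ces1g and Ces2e, Ces1e and Ces2a, and Ces2a and Ces1b. LKO males had the same order, with overlap in 2 of 9 pairs (Ces3a and Ces1d, Ces1f and Ces1g). In floxed females the order was Ces1c, Ces1d, Ces3a, Ces1f, Ces1g, Ces1b, Ces2e, Ces1e, Ces2a and Ces2c, with overlap in 5 of 9 pairs (Ces1d and Ces3a, Ces1f and Ces1g, Ces1b and Ces2e, Ces2e and Ces1e, Ces1e and Ces2a). In LKO females Ces1b moved up to the fourth place at 47.0 ± 5.42 CPM per kb and Ces1f moved down to the sixth at 31.2 ± 12.8, although the neighbours from Ces1b through Ces1g, Ces1f, Ces2e and Ces1e to Ces2a all overlapped. Ces1c was highest and Ces2c lowest in each of the 4 groups.

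**Figure D1:**
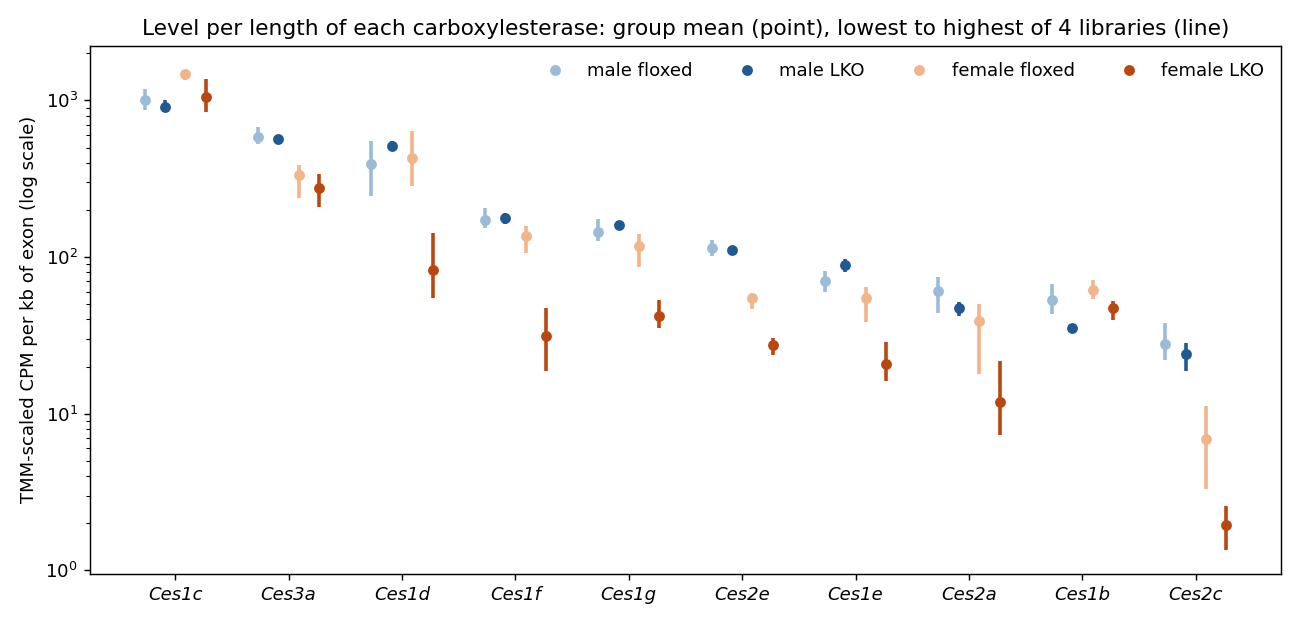
Level per length of each carboxylesterase on a log axis (TMM-scaled CPM per kb of exon). Points are group means and lines run from the lowest to the highest of 4 libraries. Ces1d, Ces1f and Ces1g of LKO females lie below all other groups, while their Ces1c and Ces3a overlap the floxed females.

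Together the 10 genes held 0.642 ± 0.0648% of all counts in floxed males, 0.638 ± 0.0194% in LKO males, 0.680 ± 0.0578% in floxed females and 0.376 ± 0.0858% in LKO females (SD, n = 4). The LKO females 5 to 8 had 0.356, 0.314, 0.502 and 0.332%, and no library of the other groups was below 0.587%. Within the 10, the make-up differed as well. Ces1c made up 52.4 ± 5.44% of their counts in floxed females and 64.1 ± 2.62% in LKO females, and Ces1d 15.4 ± 3.85% and 4.93 ± 1.33%. In these bulk samples fewer cells of a type and less RNA per cell cannot be told apart.

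The main comparison asked which of these genes differed between LKO and floxed livers in each sex. In females 7 of the 10 fell and none rose, where 4.85% of all 15432 genes tested were called lower and 4.44% higher. The 7 were Ces1d, Ces1e, Ces1f, Ces1g, Ces2a, Ces2c and Ces2e, each at an adjusted p under 0.05 in the quasi-likelihood test of edgeR. In 7 of the 10, Ces1b in place of Ces2a, all LKO females lay below all floxed females, as in 8.2% of all genes, and in none above them (7.72%). The LKO means of the 7 called genes lay between 19.1% (Ces1d) and 49.5% (Ces2e) of the floxed means. Ces1b, Ces1c and Ces3a missed the threshold with LKO means of 76.3%, 71.8% and 82.4% of the floxed means. In males 1 of the 10, Ces1b, fell and none rose, where 0.514% of 15355 genes were called lower and 0.528% higher. The median log2 fold change of the 10 was -1.45 in females and -0.06 in males, where that of all genes tested was 0.00 and -0.01. All 10 passed the filter on low counts in both sexes.

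**Figure D2:**
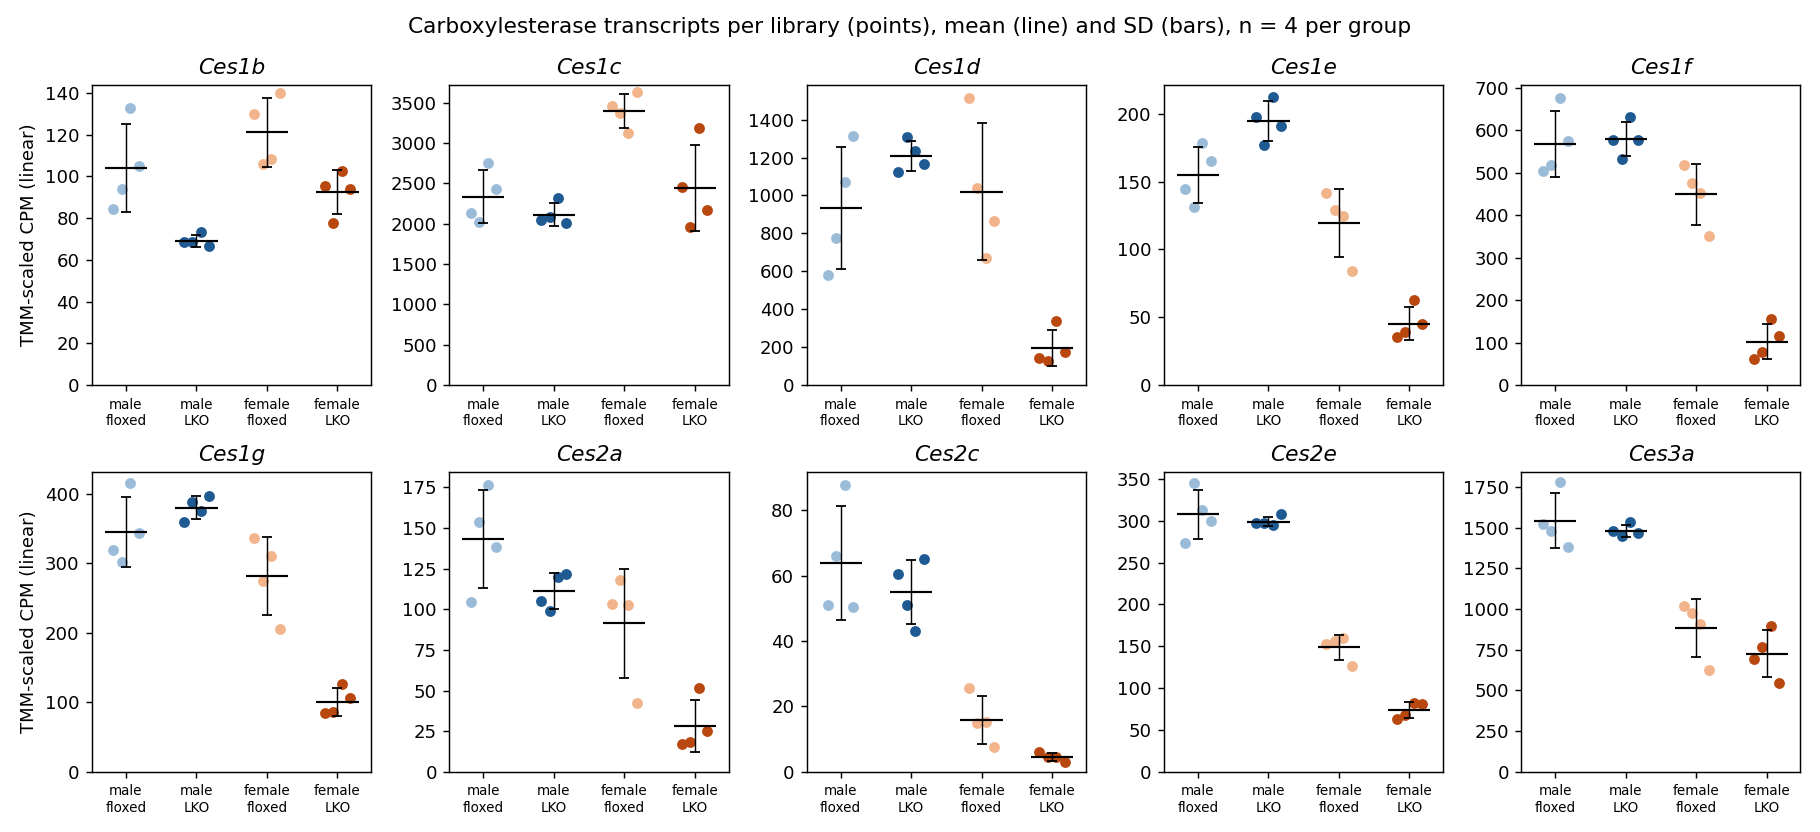
TMM-scaled CPM of each carboxylesterase in every library (points), with group means (lines) and SDs (bars), n = 4 per group, on linear axes from 0. The LKO females lie below the floxed females without overlap for Ces1b, Ces1d, Ces1e, Ces1f, Ces1g, Ces2c and Ces2e, and floxed female 4 reaches below LKO female 7 for Ces2a.

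Ces1d, Ces1f and Ces1g are known as hydrolases of triacylglycerol, and Ces1d in particular is linked to the supply of lipid for VLDL. Ces1d measured 1513, 1038, 669 and 865 CPM in the floxed females 1 to 4 and 141, 129, 337 and 173 CPM in the LKO females 5 to 8. The groups did not overlap, although the floxed females spread more than 2-fold and LKO 7 was well above the other LKO females. The log2 fold change was -2.39 (SE 0.34, 95% interval -3.15 to -1.63, edgeR adjusted p = 0.00634), which ranked 34 of 15432 genes from the lowest. In males Ces1d measured 579.7, 774, 1073 and 1312 CPM in the floxed mice 1 to 4 and 1125, 1307, 1236 and 1166 CPM in the LKO mice 5 to 8. The LKO males sat within the upper part of the floxed range, with a log2 fold change of 0.36 (95% interval -0.09 to 0.82, edgeR adjusted p = 0.523), which was 0.011 without male floxed 1 and 2.

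Ces1f measured 518, 475, 452 and 350.7 CPM in the floxed females 1 to 4 and 61.5, 77.5, 156 and 115 CPM in the LKO females 5 to 8. The lowest floxed library was above the highest LKO library by more than 2-fold, and the log2 fold change was -2.14 (SE 0.27, 95% interval -2.73 to -1.54, edgeR adjusted p = 0.00392). In males it lay between 504 and 676 CPM in floxed and between 531 and 631 CPM in LKO livers, ranges that overlapped almost wholly, with a log2 fold change of 0.02 (95% interval -0.19 to 0.23). Ces1g measured 336, 275, 310.1 and 206 CPM in the floxed and 84.5, 85.5, 126 and 106 CPM in the LKO females. All 4 LKO females were lower than every floxed female, with a log2 fold change of -1.49 (SE 0.18, adjusted p = 0.00367 by edgeR). Male Ces1g ranged from 301 to 415 CPM in floxed and from 359 to 397 CPM in LKO livers, with a log2 fold change of 0.13 (95% interval -0.07 to 0.34).

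Ces1e, known as egasyn, binds beta-glucuronidase and keeps part of it in the endoplasmic reticulum. It measured 142, 129, 125 and 83.8 CPM in the floxed females 1 to 4 and 35.2, 39.0, 62.5 and 44.9 CPM in the LKO females 5 to 8. The groups did not overlap, with floxed 4 and LKO 7 nearest to each other, and the log2 fold change was -1.40 (SE 0.20, edgeR adjusted p = 0.00634). In males the estimate had the other sign: Ces1e measured 145, 131, 178 and 165 CPM in floxed and 198, 177, 212 and 191 CPM in LKO livers. LKO 6 lay just below floxed 3, and the log2 fold change of 0.32 (95% interval 0.11 to 0.54) missed the threshold over all genes (edgeR adjusted p = 0.178) and was 0.17 without male floxed 1 and 2.

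Ces1c and Ces1b, the neighbours that share a little sequence with each other, were not called in females. Ces1c measured 3467, 3379, 3130.3 and 3636 CPM in the floxed females 1 to 4 and 2452, 1963, 3192 and 2168 CPM in the LKO females 5 to 8. LKO 7 lay among the floxed females and the other LKO females lay below them, with a log2 fold change of -0.48 (95% interval -0.83 to -0.13, edgeR adjusted p = 0.0836). Ces1b was the member called in males, at 84.4, 93.8, 133 and 105 CPM in floxed 1 to 4 and 68.4, 68.7, 73.2 and 66.5 CPM in LKO 5 to 8. The groups did not overlap, as was the case for 3.94% of all genes tested in this direction and 4.17% in the other, and the log2 fold change was -0.59 (SE 0.12, edgeR adjusted p = 0.0469). This call did not hold without male floxed 2 (0.0564), floxed 4 (0.0803), LKO 5 (0.130), LKO 6 (0.140), LKO 7 (0.102) or LKO 8 (0.156), each an edgeR adjusted p for Ces1b.

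In females Ces1b did not overlap either, at 129.7, 106, 108 and 140.1 CPM in floxed and 95.2, 77.5, 103 and 94.0 CPM in LKO livers. Its log2 fold change there was -0.39 (SE 0.12, edgeR adjusted p = 0.0645), short of the threshold. Over both sexes the mean log2 fold change of Ces1b was -0.49 (SE 0.09, edgeR adjusted p = 0.00393), and this call held under all 25 alternatives, each 1 of the 16 libraries left out in turn among them. The mean effect over both sexes was called lower for 8 of the 10 genes, all but Ces1c (edgeR adjusted p = 0.0530) and Ces3a (0.345), where 4.5% of 16126 genes were called lower and 4.05% higher. This mean is not a fall in both sexes for Ces1d, Ces1e, Ces1f and Ces1g. Their male log2 fold changes were 0.36, 0.32, 0.02 and 0.13.

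The Ces2 enzymes are known for cleaving esters with a small acyl and a large alcohol group, and Ces2a and Ces2c for cleaving acylglycerols. The RefSeq promoter table (GRCm38.p6) held 7 of the 10 genes. The 250 bases before the start sites of Ces2a, Ces2c and Ces2e are shown because these 3 neighbours were called lower in LKO females. Each has a similar but not identical stretch of 19 bases there. Whether the stretch has a part in the change was not tested. The stretch, chosen after the sequences were seen, was cut from the Ces2a promoter, from a C/EBP word to an HNF4 word (both given below). Its closest windows were then taken in Ces2c and Ces2e. The stretch is in capitals. It begins at position -83 in Ces2a, -85 in Ces2c and -93 in Ces2e, counted from the start site, at chr8:104733753-104734002, chr8:104846818-104847067 and chr8:104926010-104926259, each on the plus strand, 5′ to 3′.
Ces2a: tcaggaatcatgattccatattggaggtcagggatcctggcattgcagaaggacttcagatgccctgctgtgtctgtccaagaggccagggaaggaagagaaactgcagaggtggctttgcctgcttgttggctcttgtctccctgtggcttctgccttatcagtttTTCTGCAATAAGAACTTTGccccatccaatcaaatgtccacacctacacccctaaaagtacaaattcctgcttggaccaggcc
Ces2c: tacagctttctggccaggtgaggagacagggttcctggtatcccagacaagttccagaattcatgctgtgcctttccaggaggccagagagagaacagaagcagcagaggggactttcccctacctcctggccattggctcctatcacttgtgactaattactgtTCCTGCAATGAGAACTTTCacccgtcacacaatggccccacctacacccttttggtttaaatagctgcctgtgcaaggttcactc
Ces2e: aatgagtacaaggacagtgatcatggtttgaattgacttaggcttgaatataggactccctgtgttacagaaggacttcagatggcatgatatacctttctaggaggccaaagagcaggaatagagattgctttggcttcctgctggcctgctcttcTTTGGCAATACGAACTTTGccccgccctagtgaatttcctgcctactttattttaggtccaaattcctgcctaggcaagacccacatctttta

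Counted from 1 at the 5′ end of the stretch and with Ces2a as the reference, Ces2c carried T2C, A10G and G19C and Ces2e carried C3T, T4G and A11C. A window within 3 differences of the Ces2a stretch on the plus strand was present in 4 of 27025 promoters (0.0148%), those of Ces2a, Ces2c, Ces2e and the predicted gene Gm34291. The stretch came from Ces2a, and 3 is the number of differences of Ces2c and of Ces2e. This share follows from those choices and does not show that the stretch is particular to these genes. Ces2g, a neighbour that was not called in LKO females, had 4 differences, and 19 promoters (0.0703%) were within 4. Ces1e and Ces1g, also called lower in LKO females, had 6 and 7 differences, and 14.9% of all promoters were within 7. Ces1b and Ces1c, not called there, had 8 each. Both strands of the 300-base windows were also searched for 5 short words. The C/EBP word was TTGCNNAA and that of HNF4 was CAAAGT. The nuclear receptor word was AGGTCA, that of HNF1 was GTTAAT and the TATA word was TATAAA. In Ces2a the stretch begins with the C/EBP word and ends with the HNF4 word because it was cut that way. The closest window of Ces2e also held both words at these places. Each word was on the minus strand, and the words did not overlap. All promoters held these words in 10.7% (C/EBP) and 14.3% (HNF4) of cases, and the 7 member promoters held them in 4 and 2. Ces1b and Ces1c also held the C/EBP word, while Ces1e and Ces1g held neither of these words. Ces2c had none of the 5 words. A match of letters describes the sequence and is not a measured site.

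In LKO females the 3 genes of these promoters were all lower. Ces2a measured 103, 118, 103 and 42.3 CPM in the floxed females 1 to 4 and 17.3, 18.3, 51.3 and 25.1 CPM in the LKO females 5 to 8. Floxed 4 lay below LKO 7, which made Ces2a the called gene of the 10 whose groups overlapped. Its log2 fold change was -1.71 (SE 0.39, 95% interval -2.58 to -0.84, edgeR adjusted p = 0.0278) and -2.42 (SE 0.15, edgeR adjusted p = 0.000103) without floxed 4 and LKO 7. Leaving out the lowest floxed and the highest LKO library widens this difference by construction. The call of Ces2a did not hold without floxed 1 (0.0781), floxed 2 (0.0781), floxed 3 (0.0636), LKO 5 (0.0796), LKO 6 (0.0723) or LKO 8 (0.0686), again as edgeR adjusted p.

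Ces2c, the least abundant of the 10, measured 25.7, 14.8, 15.3 and 7.54 CPM in the floxed females and 5.90, 4.42, 4.56 and 3.11 CPM in the LKO females. Every LKO female was below every floxed female, with a log2 fold change of -1.82 (SE 0.33, 95% interval -2.55 to -1.08, edgeR adjusted p = 0.0129). Ces2e measured 153, 156, 160.1 and 127 CPM in floxed and 63.6, 68.2, 82.1 and 80.9 CPM in LKO females. These groups were tight and well apart, with a log2 fold change of -1.02 (SE 0.11, adjusted p = 0.00341 by edgeR), the smallest adjusted p among the 10. In males the 3 Ces2 genes had log2 fold changes of -0.37 (Ces2a, edgeR adjusted p = 0.297), -0.22 (Ces2c, 0.689) and -0.05 (Ces2e, 0.864), and the ranges of LKO and floxed livers overlapped in all 3.

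Ces3a belongs to the Ces3 branch of the family and was second only to Ces1c per length in males. It measured 1018, 977, 907 and 624 CPM in the floxed females 1 to 4 and 696, 766, 896 and 549 CPM in the LKO females 5 to 8. The groups overlapped widely, with a log2 fold change of -0.28 (95% interval -0.69 to 0.13, edgeR adjusted p = 0.348). Without floxed 4 and LKO 7 it was -0.53 (edgeR adjusted p = 0.0290) and was called. These were the lowest floxed and the highest LKO library for Ces3a, so leaving them out widens the difference by construction. In males Ces3a lay between 1382 and 1783 CPM in floxed and between 1448 and 1535 CPM in LKO livers, with a log2 fold change of -0.06 (95% interval -0.24 to 0.12).

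Whether the effect of the deletion differed between the sexes was tested as a term in a fit of all 16 libraries. The female effect was lower than the male effect for 6 of the 10 genes, and higher for none, where 2.45% of 16126 genes were called lower and 1.97% higher. The difference of the log2 fold changes was -2.75 (SE 0.43) for Ces1d, -2.15 (SE 0.30) for Ces1f, -1.72 (SE 0.24) for Ces1e, -1.62 (SE 0.21) for Ces1g, -1.59 (SE 0.40) for Ces2c and -0.97 (SE 0.14) for Ces2e. The edgeR adjusted p was 0.00475 or less for all of these except Ces2c (0.0350). Ces2a had a difference of -1.34 (95% interval -2.30 to -0.38, edgeR adjusted p = 0.0988), so a sex difference of its effect did not pass the threshold although it was called in females and not in males. Ces1b (0.21, 95% interval -0.17 to 0.58), Ces1c (-0.33, -0.73 to 0.08) and Ces3a (-0.21, -0.67 to 0.24) had intervals that included 0. For Ces2c the call did not hold without male floxed 1, 2 or 4, male LKO 5 or 8, female floxed 1, 2 or 3, or female LKO 6 or 8, where the edgeR adjusted p lay between 0.0501 and 0.0710. It was not kept either with limma-voom (0.0695), robust dispersion (0.0618) or the replicate number as a block (0.0591), or without male floxed 1 and 2 together (0.131), so that 12 of 26 alternatives kept it.

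**Figure D3:**
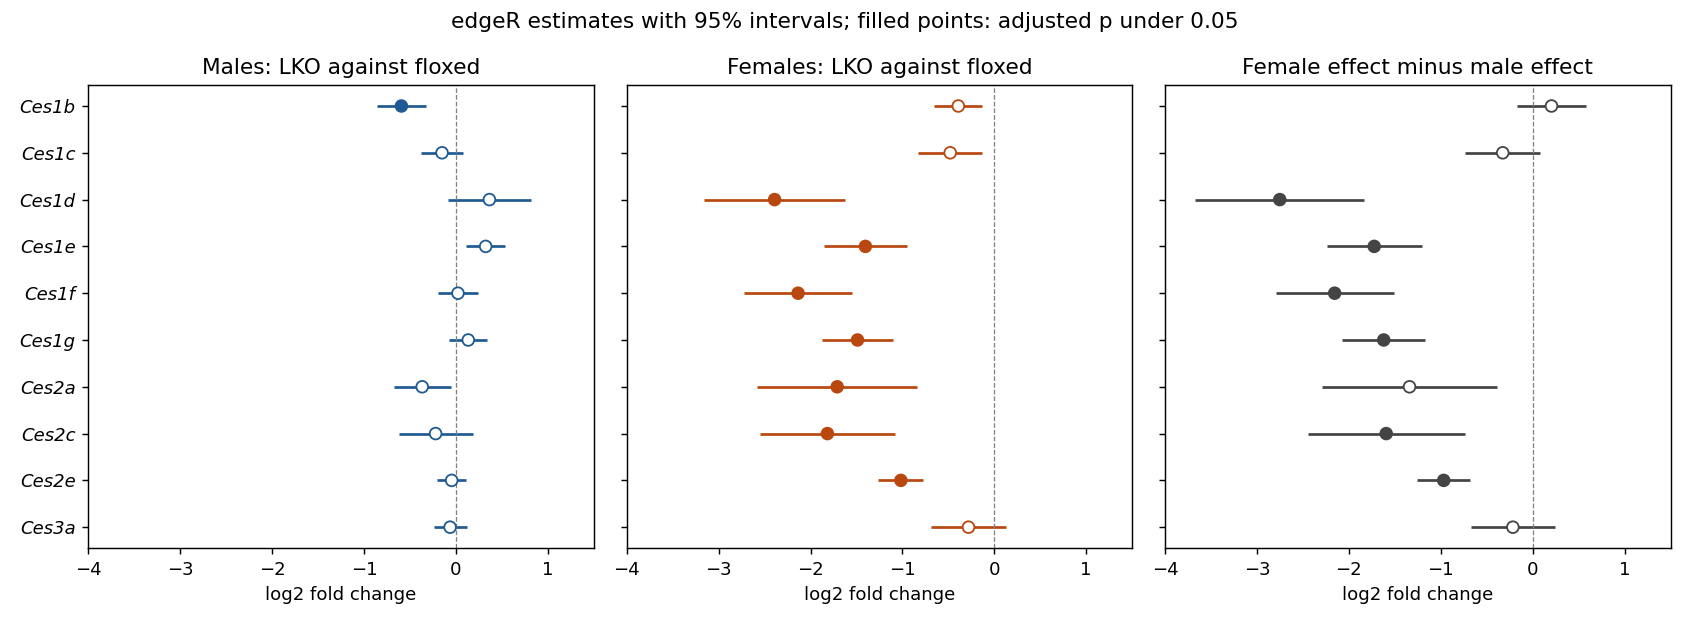
Log2 fold changes of LKO against floxed livers in males (left) and females (middle) and the female effect minus the male effect (right), as edgeR estimates with 95% intervals. Filled points passed an adjusted p of 0.05: Ces1b in males, 7 genes in females and 6 for the difference.

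The floxed groups were then compared to give the level of each gene without Cre in the 2 sexes. Floxed females had lower levels of Ces2c, Ces2e and Ces3a than floxed males and a higher level of Ces1c, with 11.6% of all genes called lower and 11.3% called higher in this comparison. Ces2c measured 15.8 ± 7.47 CPM in females and 63.7 ± 17.4 CPM in males, a log2 fold change of -2.01 (SE 0.28, adjusted p = 0.000140 by edgeR). Ces2e measured 149 ± 15.1 and 308 ± 29.8 CPM (-1.04, SE 0.10, edgeR adjusted p = 1.99e-06). Ces3a measured 881 ± 178 and 1543 ± 171 CPM (-0.81, SE 0.15, edgeR adjusted p = 0.00148). For these 3 genes the groups did not overlap, as for 12.6% of all genes in this direction, and Ces1c did not overlap in the other (11.5%).

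Ces1c was higher in floxed females, at 3403 ± 211 against 2338 ± 328 CPM (log2 fold change 0.54, SE 0.14, edgeR adjusted p = 0.00921, SD over n = 4). Without male floxed 1 and 2, the pair with distant mouse numbers, the call of Ces1c did not hold (0.39, edgeR adjusted p = 0.115). The 4 Ces1 genes that fell in LKO females, Ces1d, Ces1e, Ces1f and Ces1g, were not called between floxed females and floxed males, with log2 fold changes from -0.37 (Ces1e) to 0.13 (Ces1d, which became -0.22 without male floxed 1 and 2). Ces2c and Ces2e were called in both comparisons, lower in floxed females than in floxed males and lower again in LKO females. These 2 comparisons share the floxed females.

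The values of the 10 genes within a group moved with particular libraries. LKO 7 was the highest of the LKO females for 9 of the 10 genes, all but Ces2c, and floxed 4 was the lowest of the floxed females for 7, all but Ces1b, Ces1c and Ces1d. Without these 2 libraries more genes were called over the whole table, 9.79% of 15457 lower and 9.79% higher. Of the 10 genes 9 were then called lower in females, all but Ces1b (edgeR adjusted p = 0.0592), and the log2 fold changes were -2.86 for Ces1d, -2.51 for Ces1f, -1.74 for Ces1g, -1.73 for Ces1e, -2.05 for Ces2c, -1.14 for Ces2e and -0.60 for Ces1c. In floxed males, library 3 was the highest for 8 of the 10 genes and library 1 the lowest for 5. Without male floxed 1 and 2 the male log2 fold changes were also -0.79 for Ces1b, which was still called, -0.30 for Ces1c, -0.50 for Ces2a, -0.34 for Ces2c and -0.10 for Ces3a, none of these 4 called.

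Acute-phase proteins, made by hepatocytes under inflammatory signals, moved in the other direction over the same libraries. Of 20 such genes tested 18 rose in LKO females and none fell, with a median log2 fold change of 1.34, and none of 20 was called in males. Saa1, a serum amyloid A gene, measured 478, 341, 894 and 1373 CPM in the floxed and 10176, 21160, 7316 and 7318 CPM in the LKO females. The sum of the 20 genes was highest in floxed 4 among the floxed females (43467 CPM) and lowest in LKO 7 among the LKO females (70355 CPM), the libraries in which most carboxylesterases were lowest and highest. The sum of 12 hepatocyte markers lay between 65131 and 74817 CPM in floxed and between 38526 and 57737 CPM in LKO females. Much of that sum was Alb, at 46585 ± 3400 CPM in floxed and 25387 ± 5700 CPM in LKO females (SD, n = 4). Alb (log2 fold change -0.88) and Ttr (-0.75) were called lower, and 2 of the 11 tested, Hnf4a and Tat, were called higher. The median log2 fold change of the 11 was 0.10, so the lower sum was not a fall of these markers in general. Alb and Ttr did not keep their calls without floxed 1, 2 or 3 or LKO 5 or 8 (edgeR adjusted p from 0.0542 to 0.101), nor Ttr without LKO 6 (0.0800). Sinusoidal endothelial markers had 6 of 9 called lower in LKO females, stellate cell markers 2 of 9 (Reln and Lrat), cholangiocyte markers 1 of 6 (Epcam) and pericentral hepatocyte markers 1 of 11 (Cyp1a2). Periportal hepatocyte markers had 2 of 10 called higher (Cdh1 and Pck1), where 4.44% of all genes were called higher and 4.85% lower. The part of these changes in the carboxylesterase result was not tested.

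The other carboxylesterases of the tables were mostly near the limit of detection. Ces2g stood at 48.8 ± 2.21 CPM in the floxed and at 41.2 ± 4.32 CPM in the LKO females, with a log2 fold change of -0.25 (adjusted p = 0.0978 by edgeR), so this neighbour of the Ces2 members was not called. Ces3b, which shares sequence with Ces3a, measured 154, 84.6, 103 and 57.5 CPM in the floxed and 156, 162, 335 and 88.7 CPM in the LKO females. Of the LKO females 3 lay above every floxed female and LKO 8 lay within their range (log2 fold change 0.89, edgeR adjusted p = 0.170). Ces4a rose in LKO females from 0.583, 0.145, 0.0931 and 0.649 CPM to 2.59, 1.02, 1.36 and 1.92 CPM, a log2 fold change of 2.22 (adjusted p = 0.0306 by edgeR). It rested on 3 to 21 counts per floxed library and did not hold without floxed 1, 2 or 3 or LKO 5 or 8 (edgeR adjusted p for Ces4a from 0.0609 to 0.0887). Ces2h lay between 0.783 and 2.05 CPM over the 16 libraries. Ces1a, Ces2b and the pseudogene Ces2d-ps had at most 34 counts in a library, Ces1h at most 4 and Ces2f, a row of the male table, at most 2. None of the 7 of these genes tested in males was called. Over both sexes Ces2d-ps had a mean log2 fold change of -1.42 (adjusted p = 0.0439 by edgeR) and Ces4a of 1.28 (0.0365). Between floxed females and floxed males Ces2b (-4.04), Ces1a (-1.93), Ces3b (-1.39) and Ces2g (-0.29) were called lower in females (edgeR adjusted p from 0.00103 to 0.0240). Ces3b lost this call without male floxed 3 or 4 or female floxed 2 or 4 (0.0526 to 0.0910), and Ces2g without male floxed 3 (0.0501).

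Other hydrolases of lipids and esters moved in both directions. Of 22 tested in females 3 fell and 2 rose, where 4.85% of all genes were called lower and 4.44% higher. The median log2 fold change of the 22 was -0.03, and none of 21 was called in males. Pon1, the paraoxonase of high density lipoprotein, fell from 1010 ± 85.6 to 619 ± 66.7 CPM (log2 fold change -0.71, edgeR adjusted p = 0.00823, SD over n = 4). Afmid, an arylformamidase of tryptophan breakdown, had a log2 fold change of -2.01 (adjusted p = 0.0161 by edgeR) and Lipc, hepatic lipase, -0.92 (0.0171). Afmid lost its call without floxed 1 or LKO 5 (0.0538 and 0.0528) and Lipc without floxed 1, floxed 2 or LKO 5 (0.0562, 0.0548 and 0.0551). Pnpla2, adipose triglyceride lipase, rose by 0.56 on the log2 scale (0.0404), a call that did not hold without floxed 1, 2 or 3 or LKO 5 or 8 (0.0943 to 0.106).

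Of 16 genes of VLDL assembly and secretion 1 was called in each sex, in both cases higher. Of all genes 4.44% were called higher in females and 0.528% in males. The median log2 fold change of the 16 was 0.09 in females and 0.08 in males. The called gene was Surf4, a cargo receptor, in females (log2 fold change 0.39, edgeR adjusted p = 0.0393) and Fitm2, a lipid droplet protein of the endoplasmic reticulum, in males (0.44, 0.0365). Surf4 was not called without floxed 1, 2 or 3 or LKO 5, 6 or 8 (0.0778 to 0.120), and for Fitm2 every single omission other than floxed 4 ended the call (0.0559 to 0.103).

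Among 18 regulators of these genes 1 rose and 2 fell in females, and none was called in males. In females 4.44% of all genes were called higher and 4.85% lower. Nr1i3, which encodes CAR, fell from 996 ± 125 CPM in the floxed to 494 ± 101 CPM in the LKO females (SD, n = 4; log2 fold change -1.01, edgeR adjusted p = 0.00796). Hnf4a, a hepatocyte nuclear receptor, rose from 587 ± 59.4 to 843 ± 85.2 CPM (0.52, edgeR adjusted p = 0.0230), and this call did not hold without floxed 1 (0.0722), floxed 3 (0.0601), LKO 5 (0.0706) or LKO 8 (0.0606). Srebf2, the regulator of sterol synthesis, fell by 0.61 on the log2 scale (edgeR adjusted p = 0.0496). Omitting floxed 1, floxed 4, LKO 5, LKO 6, LKO 7 or LKO 8 ended that call (0.0565 to 0.120). The female effect minus the male effect was -0.91 for Nr1i3 (edgeR adjusted p = 0.0497), a call that 15 of 26 alternatives did not keep (up to 0.173), and 0.70 for Hnf4a (0.0144), which was not kept without male floxed 1 and 2 (0.0538). Nr1i2, which encodes PXR, and Nr1h4, which encodes the bile acid receptor FXR, had log2 fold changes of 0.15 (edgeR adjusted p = 0.481) and -0.05 (0.766) in females.

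Of 20 other known targets of CAR and PXR tested in females 11 fell, 2 rose (Gadd45b and Cyp3a13) and 7 were not called. Among all genes tested in females 4.85% were called lower and 4.44% higher. The median log2 fold change of the 20 was -0.76. In LKO males 2 of 21 fell, Abcc2 and Cyp2c54, where 0.514% of all genes were called lower and 0.528% higher. The female values with the smallest p were those of Cyp2b9 (log2 fold change -0.85, edgeR adjusted p = 0.00590), Abcc2 (-0.71, 0.00823), Cyp2b13 (-1.30, 0.0147) and Cyp3a11 (-0.996, 0.0163). Cyp2b9, Cyp2b13 and Cyp3a11 are monooxygenases of foreign compounds, and Abcc2 exports conjugates into bile. Cyp2b13 lost its call without floxed 1 (0.0509) and Cyp3a11 without floxed 1, floxed 2 or LKO 5 (0.0509, 0.0534 and 0.0536). The male values were -0.56 for Abcc2 (0.0200) and -1.88 for Cyp2c54 (0.0269), and both were not called without LKO 5, 7 or 8 (0.0748 to 0.0967), nor Abcc2 without floxed 3 (0.0564) or floxed 1 and 2 together (0.0627), nor Cyp2c54 without LKO 6 (0.0836).

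None of 11 NRF2 targets, genes of the antioxidant response, was called in males. In females 3 fell (Abcc4, Gstm1 and Gclc), where 4.85% of all genes were called lower. Their log2 fold changes were -0.93, -0.82 and -0.52 (edgeR adjusted p = 0.0330, 0.0436 and 0.0476). None of the 3 was called without floxed 1, 2 or 3 or LKO 5 or 8, nor Gstm1 and Gclc without LKO 6, nor Gclc without floxed 4, with edgeR adjusted p from 0.0559 to 0.129.

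**Figure D4:**
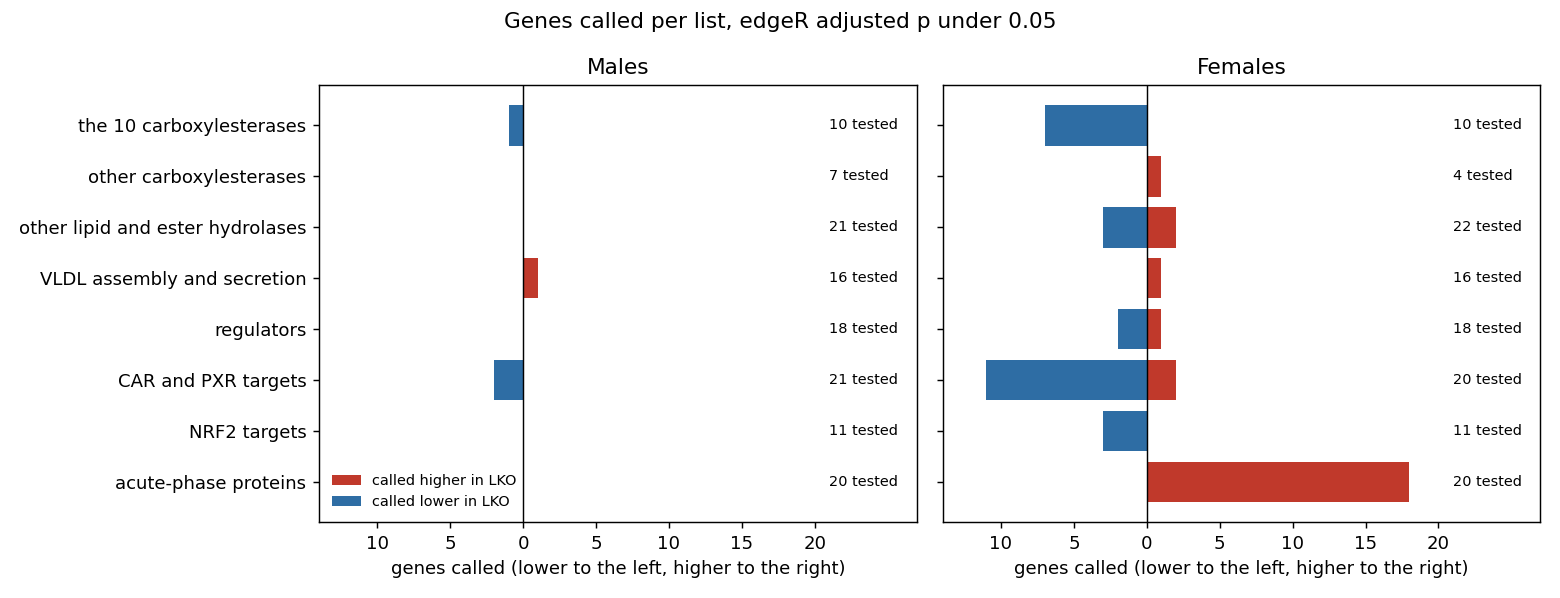
Number of genes called lower (to the left) and higher (to the right) in LKO than in floxed livers, per gene list and sex, at an edgeR adjusted p under 0.05, with the number tested at the right of each bar. In females the 10 carboxylesterases have 7 lower and the acute-phase proteins 18 higher, while the males show at most 2 per list.

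The genes whose log2 levels ran most like each member over the 16 libraries were taken from 8406 candidates, as a description only, since the libraries share their groups. Car3, a carbonic anhydrase, stood first for Ces1e (r = 0.986), Ces1f (0.981) and Ces1g (0.980). Within the 8 female libraries these values were 0.994, 0.987 and 0.980, and within the 8 male libraries 0.750, 0.689 and 0.365. Ces1d was most like Akr1c19, an aldo-keto reductase (0.959), and here the values within females and within males were both 0.963.

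Ces2a was most like Aldh6a1, a mitochondrial dehydrogenase of valine breakdown (r = 0.983 over 16 libraries, 0.988 within females and 0.688 within males), and Ces2c most like Enpp5 (0.974, 0.944 and 0.454). Ces2e was most like Pebp1 (0.983, 0.967 and 0.183) and Ces3a most like Abhd14b (0.975, 0.931 and 0.240). Ces1c was most like Notum (0.916, 0.964 and 0.578) and Ces1b most like Rsbn1l (0.894, 0.769 and 0.916). The likeness to these first-placed genes was thus lower within males than over the 16 libraries for every member but Ces1b and Ces1d. Within males it was lowest for Ces2e and Ces3a, followed by Ces1g (0.365 with Car3) and Ces2c. The reason was not tested.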

How the data were processed

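Poly(A) RNA of 16 livers was sequenced by Novogene from directional libraries after TRIzol extraction, per the labels' protocols. The authors deposited whole-number counts per gene in 1 table for each sex (per the file headers, Ensembl identifiers and 8 mouse columns each), from reads placed on mm10 (submitters' processing notes). Neither aligner, counter nor strand setting is given in the sources used here. Both tables shared 23167 identifiers, and 26 identifiers in males and 28 in females had no symbol. Symbols, positions and exon lengths came from GENCODE M21 and promoters from RefSeq (GRCm38.p6).

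Each sex was fitted alone. A fit of all 16 libraries over the shared identifiers gave the difference of the effects, the effect over both sexes and floxed females against floxed males. Low genes were removed by filterByExpr (at least 10 counts, and 15 in total), TMM factors were applied, and edgeR 4.0.16 (R 4.3.3) ran its quasi-likelihood test. Calls required p under 0.05 after Benjamini-Hochberg adjustment over every gene tested. CPM used the TMM factors of the 16 libraries. Matr3 was tested with a two-sided exact permutation test per sex.

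All 10 carboxylesterases and every other carboxylesterase row were described. Of each other list up to 4 genes with the smallest p and the regulators Nr1i2, Nr1i3, Nr1h4 and Hnf4a were named. Genes most like a member had the highest Pearson r of log2 CPM (prior count 2) among named genes whose log2 CPM averaged 3 or more. The members, lists and alternatives were chosen with earlier results of these data known, and the sequence words and stretch after the promoters were seen. Alternatives were DESeq2 1.42.0, limma-voom (limma 3.58.1), median-of-ratios scaling, library totals, no filter, 1 CPM in 4 libraries, robust dispersion, the 16-library fit, a replicate block and omission of libraries. Replicates were 1 mouse each per the labels, and no pair of libraries was a copy. The procedure was tested on simulated data.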

Additional observations from a re-analysis of the deposited data

Results flagged for a closer look

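The difference between the female and the male effect of the deletion passed an edgeR adjusted p of 0.05 for 6 carboxylesterases. On the log2 scale the female effect minus the male effect was -2.75 for Ces1d, -1.72 for Ces1e, -2.15 for Ces1f, -1.62 for Ces1g, -1.59 for Ces2c and -0.97 for Ces2e. For Ces2c the call was lost in 14 of 26 alternatives, among them the replicate block (adjusted p = 0.0591) and the omission of male floxed 1 and 2 (0.131). LKO females were below floxed females in all 4 libraries of each gene, while the LKO males overlapped the floxed males. Sex and deposited table cannot be told apart in these differences. Dixon's test over 4 libraries, run for each gene and group, passed its critical value of 0.829 in none of 40 cases. Female floxed 4 and LKO 7 nevertheless lay apart on the first principal component, and LKO 7 was the highest of its group for 9 of the 10 genes.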

How the results depend on the processing

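Of the carboxylesterases, 1 called in males became 0 with limma-voom (Ces1b, adjusted p = 0.0502) and 0 with median-of-ratios scaling (0.0512), and the count lay between 0 and 1 when each library was left out in turn. Ces1b kept its male call without floxed 1 and 2 together (adjusted p = 0.00916). In females the count of 7 became 9 with DESeq2 and in the 16-library fit, 8 with library totals and 6 with robust dispersion, and lay between 6 and 9 without single libraries. The 7 genes were all among those called with DESeq2, in the 16-library fit and with library totals, and with robust dispersion Ces2a was not called (0.0634). With library totals, 73.4% of all genes called in females were lower, against 52.2% with TMM scaling. Of all genes, edgeR called 1433 in females and 160 in males. DESeq2 called 2415 and 514, the 16-library fit 2854 and 97, and omission of single libraries 396 to 2300 and 69 to 179. Without female floxed 4 and LKO 7 the female count was 3028. For the difference of the effects it was 713, and 1336 with DESeq2, 468 with the replicate block, 2030 without those females and 243 without male floxed 1 and 2. The difference of the effects held 5 to 7 of the 10 genes, the effect over both sexes 8 to 10, and floxed females against floxed males 3 to 5. Of 1110 values of the 10 genes under alternatives, 1047 kept their direction and side of the threshold, 30 lost a call, 23 gained a call and 10 changed sign, none of them called.

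Signs changed only for log2 fold changes near 0. Without male floxed 1 and 2 the male values became -0.12 for Ces1f, -0.0054 for Ces1g and -0.017 for Nr1h4, and Ces1d between floxed females and floxed males became -0.22. When single libraries were left out, the male values ranged from -0.032 to 0.12 for Ces1f, from -0.10 to 0.012 for Ces2e, from -0.11 to 0.013 for Ces3a, from -0.012 to 0.22 for Nr1i2 and from -0.22 to 0.021 for Nr1i3, and Ces1d between floxed females and floxed males ranged from -0.13 to 0.34. The cause was not tested.

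Same-numbered libraries of the 2 sexes did not deviate together (r from -0.12 to 0.13, with 2 of 8 closest to their own number), so the numbers were not taken as pairs. With the replicate number as a block, 5 of the 10 genes were called when the effects of the sexes were compared, Ces2c no longer (0.0591), and 4 between the floxed groups. Levels per length are given in the report and change only the order of the genes.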
